A study of Homo sapiens with 20 samples.

Results

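NCI-H196, a line derived from variant small cell lung cancer, was compared with HCC366, from a lung adenosquamous carcinoma, and NCI-H1650, from a lung adenocarcinoma, in their control state. The comparison used the RNA-seq libraries with an sgRNA against *GFP*, which these cells do not carry in their genome, so that Cas9 had no intended target. These were 6 of the 20 libraries of the series, 2 per line (GFP sg1 and GFP sg2), taken by the cell line and sgRNA target given for each sample. All 6 cultures had been transduced with lentivirus for Cas9 and the sgRNA, received no IFN-β and were harvested 5 days after transduction. The methods of the study describe drug selection of transduced lines with puromycin, blasticidin or both, without naming these cultures. The other libraries carried sgRNAs against *ADAR*, the gene of the RNA-editing enzyme ADAR1, or came from A549 cells treated with vehicle or IFN-β. The 6 *ADAR* libraries of the same 3 lines served here as a second look at the same contrast in cells that also differ in *ADAR*. The 2 libraries of a line differ in the sgRNA and nothing states that they came from separate experiments, so p values measure the spread between these libraries, which may be technical. With 1 small cell line, differences of tumor type and differences of 1 cell line cannot be told apart.

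The reads counted on genes numbered 9156750 and 62679 in NCI-H196 (sg1 and sg2), 1270414 and 3440707 in HCC366 and 4604047 and 4178438 in NCI-H1650. Expression is given below in CPM, that is, counts scaled to the library total by the TMM method, always in the order sg1, sg2. In NCI-H196 sg2, 1 read equals 12.5 CPM and a count of 0 allows up to 37.5 CPM, against 0.333 CPM in NCI-H196 sg1. Of the 14986 genes tested, 9898 had a read in NCI-H196 sg2 and 14017 to 14730 in each of the other libraries. The libraries of a line correlated across genes at 0.980 (HCC366), 0.992 (NCI-H1650) and 0.859 (NCI-H196), and NCI-H196 libraries correlated with those of the other lines at 0.544 to 0.675 (log2 CPM of 3622 genes with at least 5 reads in every library, a description). Log2 fold changes of NCI-H196 therefore rest mainly on sg1, and each main count below was repeated without sg2 and without sg1. Intervals and limits cover counting error only.

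Small cell lung cancer usually carries a neuroendocrine program set by transcription factors such as NEUROD1, and it usually lacks functional RB. Its variant form can lose that program and take on features of mesenchymal cells. Adenocarcinomas and adenosquamous carcinomas of the lung keep an epithelial program, in which E-cadherin and desmosomes join cells to each other and keratins fill the cytoskeleton. Mesenchymal cells repress that program through the ZEB and related factors and secrete fibrillar collagens, which bind integrins and discoidin receptors. Type I interferons induce a set of antiviral genes (interferon-stimulated genes, ISGs) through a complex that contains IRF9, and the cytosolic RNA sensors MDA5 (*IFIH1*) and RIG-I (*DDX58*) can start interferon production.

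The lines differed over most of the transcriptome. NCI-H196 was higher than the mean of the other lines at 4707 of the 14986 genes (31.4%) and lower at 4428 (29.5%), or 61.0% in either direction, by edgeR's quasi-likelihood test at a Benjamini-Hochberg adjusted p of 0.05, which is the test behind each adjusted p below unless another is named. Against HCC366 alone, 29.1% of genes were higher and 29.8% lower (58.9% in all), and against NCI-H1650 alone 31.2% were higher and 32.0% lower (63.3%). HCC366 and NCI-H1650 themselves differed at 58.6% of genes, 28.4% higher and 30.2% lower in HCC366, and they lay on opposite sides of NCI-H196, both called, at 6.03%. A gene list was therefore read against these shares and against stricter ones. Genes called in the same direction against the mean and against each line separately made up 18.6% (higher) and 17.1% (lower) of all genes. Of all genes, 13.1% and 15.9% did so without any overlap between libraries. Where NCI-H196 sg2 had 0 reads, non-overlap of a lower gene rests on sg1 alone, as a 0 there allows up to 37.5 CPM. A test against a log2 fold change of 1 called 11.5% higher and 11.3% lower. Without NCI-H196 sg1, only 529 genes were higher and 673 lower, and without sg2 the shares were 31.7% and 28.2% of 16664 genes. DESeq2 called fewer genes, 1522 higher and 1800 lower.

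**Figure D1:**
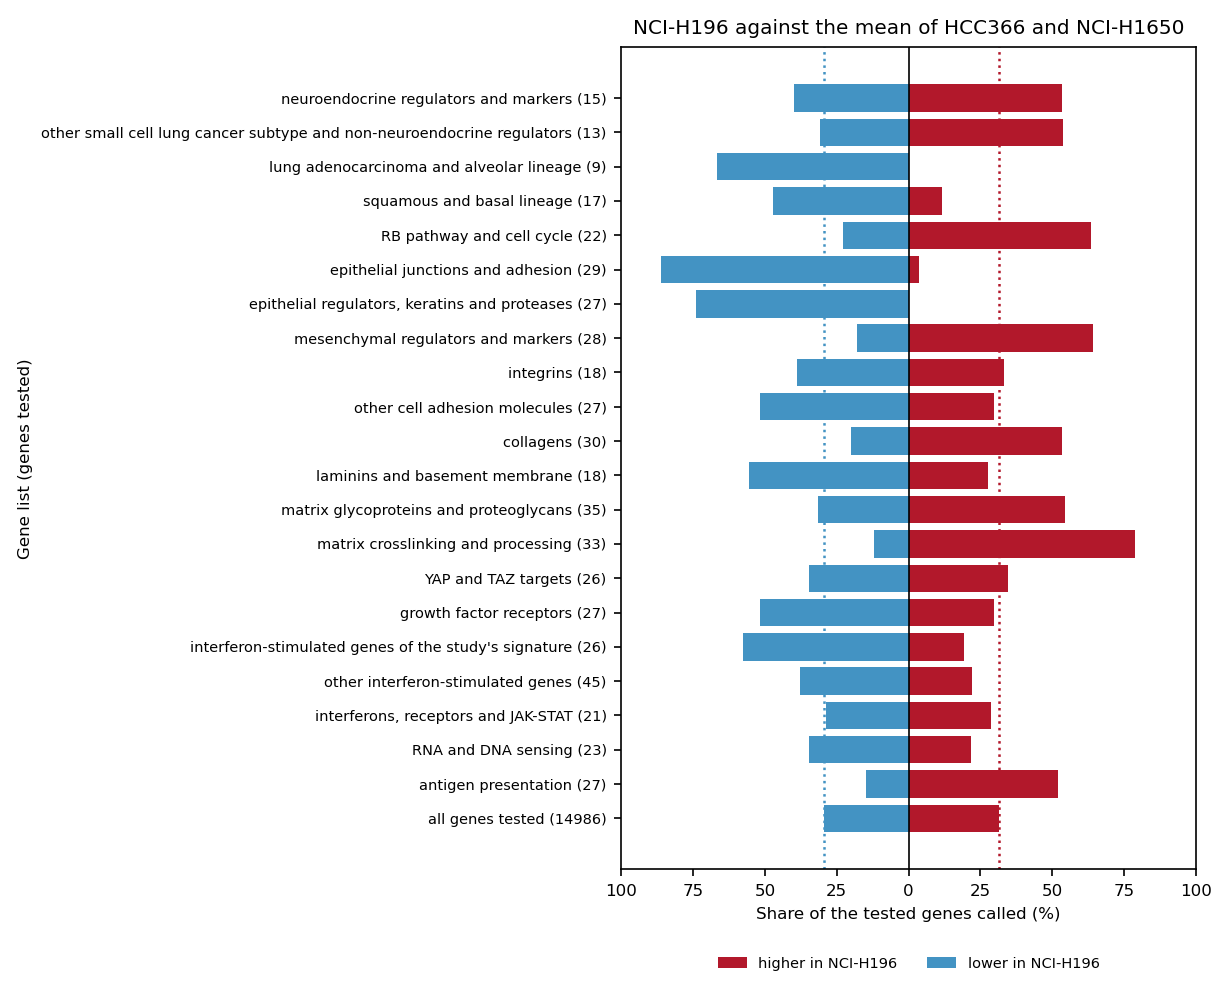
Share of the tested genes of each list (vertical axis, number of genes tested in parentheses) called higher (right) or lower (left) in NCI-H196 than in the mean of HCC366 and NCI-H1650, in percent. Dotted lines mark the shares of all genes tested, 31.4% higher and 29.5% lower. Epithelial lists extend to the left, with 25 of 29 and 20 of 27 genes lower, and crosslinking enzymes to the right, with 26 of 33 higher.

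Defining markers of neuroendocrine cells were absent or low in all 3 lines, the small cell line included, while other genes of the neuroendocrine list were higher in NCI-H196. *NEUROD1*, *INSM1* and *DLL3*, which define neuroendocrine small cell lung cancer, and *CHGB* had 0 reads in both NCI-H196 libraries. The summed level of 8 such markers was 12.5 to 18.2 CPM in NCI-H196, 13.8 to 19.7 CPM in HCC366 and 29.2 to 33.7 CPM in NCI-H1650. The ranges of NCI-H196 and HCC366 overlapped, though different genes made up the sums. In NCI-H196 most of the sum was *NCAM1*, at 15.4 and 12.5 CPM (1 read in sg2), which had 2 reads in HCC366. The whole list of 32 neuroendocrine genes summed to 876 and 735 CPM in NCI-H196, 325 and 284 CPM in HCC366 and 156 and 172 CPM in NCI-H1650, and 15 of them had enough reads to be tested. Among them 8 were higher and 6 lower, with 7 and 3 in the same direction against each line (median log2 fold change 1.40, all genes −0.01). Without NCI-H196 sg1, 4 were higher and 0 lower. DESeq2 called 7 higher and 1 lower.

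*UCHL1*, a ubiquitin hydrolase of neurons and neuroendocrine cells, was at 539 and 374 CPM in NCI-H196, 197 and 157 CPM in HCC366 and 4.94 and 4.13 CPM in NCI-H1650. The 3 lines did not overlap, and the log2 fold change against the mean was 4.17 (standard error 0.16, adjusted p = 5.91e-144). *SCG5*, a chaperone of prohormone convertase 2, was at 72.1 and 49.8 CPM in NCI-H196, 6 and 3.53 CPM in HCC366 and at most 0.486 CPM in NCI-H1650. The granule protein gene *SCG2* was at 21.5 and 49.8 CPM in NCI-H196 and at most 0.858 CPM in the other libraries. *CPE* and *PCSK1*, which process prohormones, had log2 fold changes of 2.61 and 2.49. The neural adhesion gene *NCAM1* was at 15.4 and 12.5 CPM in NCI-H196, with 2 reads in all of HCC366 and 1 in NCI-H1650, a ratio of 32.9 to HCC366 (95% counting interval 8.93 to 274). In the opposite direction, *CHGA*, the chromogranin of dense-core granules, was at 1.33 and 0 CPM in NCI-H196 and 13.1 to 17.3 CPM in NCI-H1650. The synaptic vesicle gene *SYP* stayed under 4.30 CPM in every library. The Notch ligand gene *DLL3* was at least 17.7-fold lower in NCI-H196 than in HCC366 and at least 24.1-fold lower than in NCI-H1650, with 0 reads against 4.17 to 10.3 CPM. *RTN1*, a reticulon of neuroendocrine tissue, was at 6 and 4.81 CPM in HCC366 and near 0 in the other lines.

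Among regulators of the other small cell subtypes, *POU2F3*, which marks the tuft cell type, had 0 reads in NCI-H196 and was under 0.859 CPM elsewhere. *YAP1*, whose expression marks a non-neuroendocrine type, was at 124 and 99.7 CPM in NCI-H196, 395 and 427 CPM in HCC366 and 282 and 298 CPM in NCI-H1650. It was present in NCI-H196 yet lower than in either line (log2 fold change −1.49, standard error 0.18, adjusted p = 4.39e-16). Its paralog *WWTR1* (TAZ) was higher (log2 fold change 1.23), at 167 and 74.8 CPM in NCI-H196, with sg2 above HCC366 (45.5 and 50.1 CPM) but under NCI-H1650 (96.9 and 96.3 CPM). *NOTCH1* was at 208 and 249 CPM in NCI-H196 against 36.9 to 103 CPM in the other 4 libraries, and the Notch ligand gene *JAG1* at 560 and 735 CPM against 138 to 216 CPM. *REST*, the repressor of neuronal genes, was at 128 and 99.7 CPM in NCI-H196 and 102 to 125 CPM in the others, with overlapping groups and no call (log2 fold change 0.13, adjusted p = 0.456). *AVIL*, a villin-family gene, was higher (1.76), and *MYC* and *SOX9* were lower (−1.89 and −1.34). *NOTCH3* lay between the other lines, at 49.4 and 112 CPM against 0.858 and 1.60 CPM in HCC366 and 152 and 200 CPM in NCI-H1650. Over the 13 tested genes of this list, 7 were higher and 4 lower (3 and 2 without NCI-H196 sg1).

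Lung epithelial identity was weak throughout. *NKX2-1*, the lineage factor of alveolar cells, had 0 reads in all 6 libraries, and 5 alveolar markers summed to at most 5.78 CPM in any library, the libraries of the adenocarcinoma line included. Of 28 alveolar genes, 9 were tested, with 0 higher and 6 lower in NCI-H196 (0 lower without NCI-H196 sg1, and 1 or 2 higher without any other library). *FOXA1*, a pioneer factor of endoderm, had 0 reads in NCI-H196 and 5.83 to 8.58 CPM elsewhere, at least 21.3-fold lower than in HCC366 and 19.1-fold lower than in NCI-H1650. *GATA6* was at 3.10 and 0 CPM against 9.63 to 21.5 CPM, and *ABCA3*, the surfactant lipid transporter, at 1.66 and 0 CPM against 82.4 and 95.7 CPM in HCC366 and 8.75 and 10.7 CPM in NCI-H1650. *AGR2*, a secretory epithelial gene, was seen only at 3.37 and 4.86 CPM in NCI-H1650 and at 1 read in HCC366. Of 17 squamous and basal genes tested, 2 were higher and 8 lower (1 and 2 without NCI-H196 sg1, and 4 lower without HCC366 sg2). *TP63*, the factor of basal and squamous cells, was one of the higher genes, at 15.6 and 49.8 CPM in NCI-H196 and 0.858 to 2.43 CPM in the other 4 libraries (log2 fold change 3.22, standard error 0.34, adjusted p = 1.05e-20). The other was *S100A2* (1.69). Squamous keratins did not accompany *TP63*: *KRT6A* had 0 reads in NCI-H196 and HCC366 and 64.9 and 80.5 CPM in NCI-H1650, and *KRT15* was at 0.553 and 0 CPM against 13 to 26.6 CPM. *KRT16* and *TRIM29* were also nearly confined to NCI-H1650, at 265 to 347 CPM and 58.3 to 62.6 CPM, against less than 1 CPM in NCI-H196 and HCC366. *PERP*, a desmosomal protein, was lower in NCI-H196 than in each line (−4.98). Markers of blood cells summed to at most 9.63 CPM and the 2 endothelial markers matched to at most 2.57 CPM in every library. The 18 matched genes of the wider list summed to 0 to 13.8 CPM in NCI-H196 and HCC366 and to 96.1 and 84.6 CPM in NCI-H1650, of which *CSF1R*, the receptor of macrophage growth factor, made up 90.2 and 74.9 CPM.

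**Figure D2:**
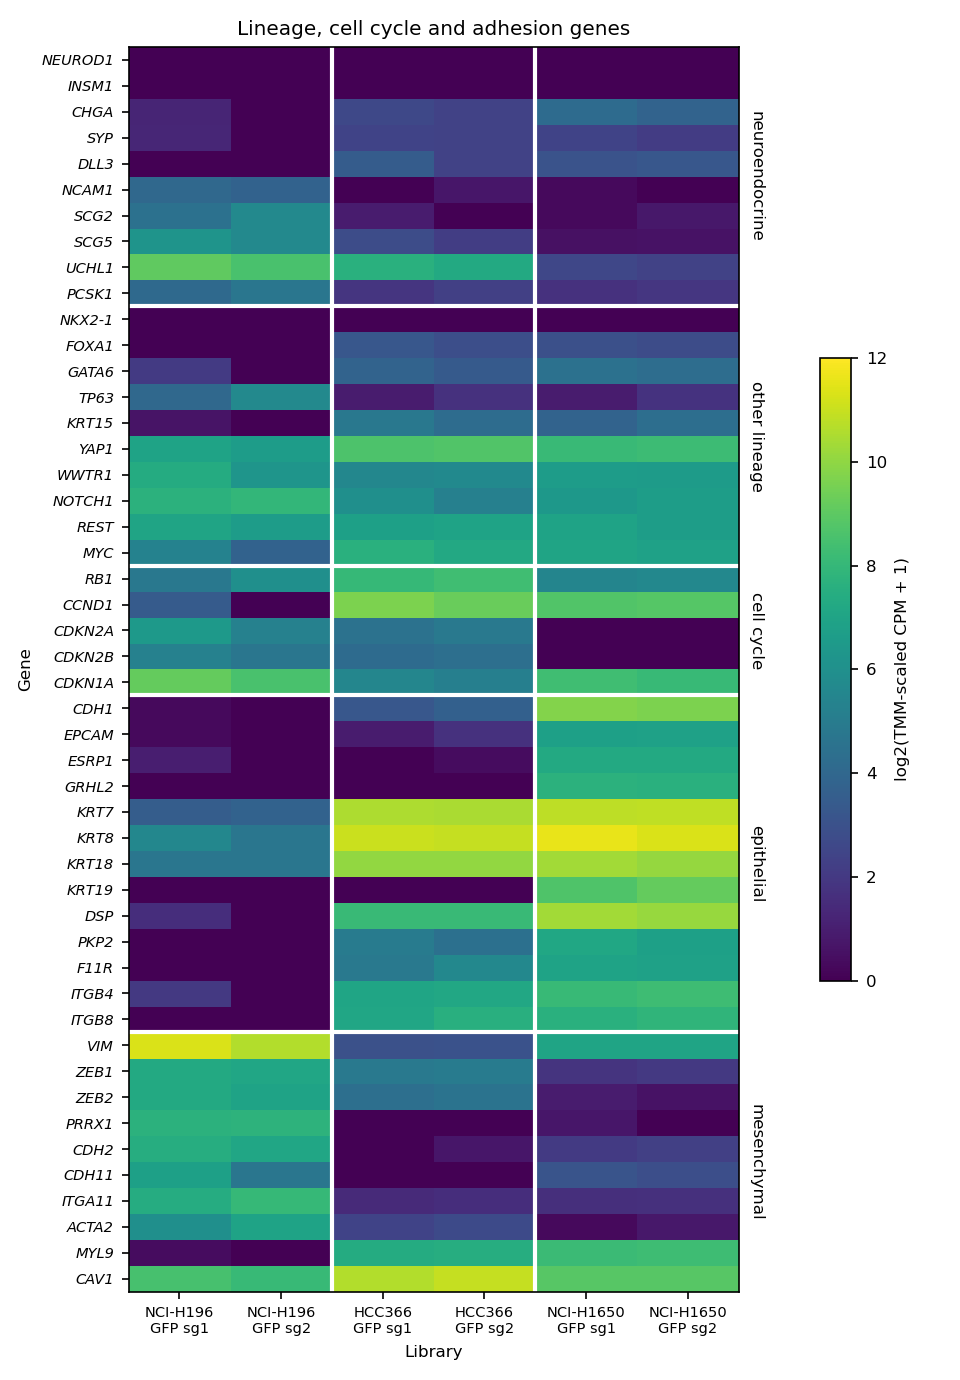
Expression of 48 lineage, cell cycle and adhesion genes (rows) in the 6 libraries (columns), as log2(TMM-scaled CPM + 1). *CDH1* and *DSP* are dark in both NCI-H196 libraries and *VIM*, *PRRX1* and *ITGA11* are bright, whereas *NEUROD1* and *NKX2-1* are dark in every library.

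Genes of the RB pathway and cell cycle control were more often higher than lower in NCI-H196. Of 22 tested, 14 were higher and 5 lower, with 11 and 4 in the same direction against each line (median log2 fold change 0.64). Without NCI-H196 sg1, 3 were higher and 2 lower. *RB1* was at 26.6 and 62.3 CPM in NCI-H196, 262 and 314 CPM in HCC366 and 43.3 and 46.9 CPM in NCI-H1650. The NCI-H196 libraries lay on either side of NCI-H1650 and far under HCC366. The log2 fold change was −3.40 against HCC366 (adjusted p = 1.29e-61) and −0.71 against NCI-H1650 (adjusted p = 0.000847). *CCND1*, the cyclin that drives RB phosphorylation, was at 9.96 and 0 CPM in NCI-H196, 783 and 606 CPM in HCC366 and 430 and 449 CPM in NCI-H1650. The log2 fold change, −5.80 ± 0.27 (SE, adjusted p = 5.92e-102), was the most negative of the tested genes of this list. Its partner *CDK6* was lower too (−1.64). *CDKN2A*, which encodes the CDK4/6 inhibitor p16 and ARF, was at 85.8 and 37.4 CPM in NCI-H196, 22.3 and 27.6 CPM in HCC366 and at 0 reads in both NCI-H1650 libraries, at least 244-fold higher than in NCI-H1650. The neighboring *CDKN2B* had the same 0 reads in NCI-H1650 and was at 37.3 and 24.9 CPM in NCI-H196 and 17.2 and 19.9 CPM in HCC366. *CCNE2* and *CDKN2C* were higher than in either line (2.03 and 1.94). *CDKN1A*, the inhibitor p21, was at 569 and 374 CPM in NCI-H196, 44.6 and 35.3 CPM in HCC366 and 314 and 272 CPM in NCI-H1650.

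Epithelial junction and adhesion genes were low in NCI-H196. Of 29 junction and adhesion genes tested, 25 were lower and 1 was higher, and 19 were lower than in each line separately, against 17.1% of all genes. The median log2 fold change was −4.55 (−4.33 with genes at 0 reads set to their limit, all genes −0.01), and 23 of the 29 passed the test against a log2 fold change of 1 as lower, against 11.3% of all genes. Without NCI-H196 sg1, 10 were lower, and without sg2, 25. DESeq2 called 23 lower and 0 higher. In the *ADAR* libraries of the same lines 26 of 29 were lower and 0 higher, and all 25 lower genes were among them.

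E-cadherin, the cell–cell adhesion receptor of epithelia (*CDH1*, chr16:68771195-68869440 in GRCh37), had 2 reads in NCI-H196 sg1 (0.221 CPM) and 0 in sg2. It was at 8.58 and 11.9 CPM in HCC366 and 872 and 788 CPM in NCI-H1650. NCI-H196 was lowest and HCC366 lay between the others. The ratio of HCC366 to NCI-H196 was 50 (95% counting interval 13.1 to 425), and that of NCI-H1650 to NCI-H196 was 3791 (1049 to 31309). *CDH3* (P-cadherin) was at 0.996 and 0 CPM against 110 and 137 CPM in HCC366 and 641 and 653 CPM in NCI-H1650. *EPCAM*, a surface glycoprotein, had 2 reads in NCI-H196 and was also low in HCC366, at 0.858 and 2.25 CPM.

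Several desmosomal genes were expressed in both other lines. *DSP*, which links desmosomes to keratin, was at 1.99 and 0 CPM in NCI-H196, 278 and 277 CPM in HCC366 and 1303 and 1121 CPM in NCI-H1650 (log2 fold change −8.17, standard error 0.34, adjusted p = 1.59e-124). The desmosomal cadherin gene *DSG2* followed the same order, at 0.886 and 0, 145 and 133, and 581 and 480 CPM. *PKP2* (plakophilin 2) had 0 reads in NCI-H196 and was at least 71.0-fold lower than in HCC366 and 385-fold lower than in NCI-H1650. *F11R*, the tight junction protein JAM-A, also had 0 reads and was at least 128-fold and 364-fold lower. The tricellular junction gene *LSR* and plakoglobin (*JUP*) had log2 fold changes of −5.63 and −3.98. In none of these desmosomal and junction genes did a library of NCI-H196 reach a library of the other lines. A count of 0 in NCI-H196 sg2 allows up to 37.5 CPM, above *PKP2* in HCC366 (30.9 and 20.5 CPM) and *F11R* in HCC366 sg1 (27.5 CPM).

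The promoter of *DSP* is printed because the letters CAGGTG, an E-box bound by the SNAIL and ZEB repressors, occur in it more than once. The table of RefSeq promoters used (GRCh38.p14; 250 bases before to 50 after the start site) held 19 of the 31 junction genes, and 9 of them (47.4%) carried CAGGTG on either strand, against 20.6% of all 35116 promoters. Among epithelial regulators and keratins, 7 of 13 (53.8%) did. Of the genes called lower in NCI-H196, 7 of 15 junction genes (46.7%) and 3 of 8 regulators and keratins (37.5%) did. Other lists were also above the share of all promoters, among them squamous and basal genes (40%) and interferons, receptors and JAK-STAT (40.9%). In the sequence, at chr6:7541654-7541953 of GRCh37 on the plus strand, capitals mark the E-boxes, which start 178 and 85 bases before the start site. A match of letters is a description, not a bound site.
DSP promoter: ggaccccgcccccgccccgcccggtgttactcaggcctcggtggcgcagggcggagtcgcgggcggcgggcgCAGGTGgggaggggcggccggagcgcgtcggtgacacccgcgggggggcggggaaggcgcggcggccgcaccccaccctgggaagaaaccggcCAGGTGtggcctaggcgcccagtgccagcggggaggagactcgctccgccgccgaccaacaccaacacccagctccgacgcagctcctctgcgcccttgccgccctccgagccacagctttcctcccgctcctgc

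Epithelial regulators, keratins and surface proteases separated the lines in a second way. Of 27 tested, 20 were lower in NCI-H196 than in the mean and 0 higher (19 lower by the test against a log2 fold change of 1, median −5.02, or −3.93 with genes at 0 reads set to their limit). Against NCI-H1650 all 27 were lower, and against HCC366 12 were lower and 1 higher. Without NCI-H196 sg1, 6 were lower than the mean. *KRT8*, *KRT18* and *KRT7*, keratins of simple epithelia, were high in both other lines, unlike *KRT19*, which had 0 reads in HCC366. *KRT8* was at 46.2 and 24.9 CPM in NCI-H196, 2129 and 1986 CPM in HCC366 and 3079 and 2547 CPM in NCI-H1650, and its partner *KRT18* at 25 and 24.9, 1074 and 1058, and 1286 and 1092 CPM. These genes overlap on opposite strands, and whether counting used strand is not given in the sources used here. *KRT7* was at 10.6 and 12.5 CPM against 1421 to 1863 CPM. The protease inhibitor gene *SPINT2* was at 2.88 and 0 CPM against 217 to 386 CPM.

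Other epithelial regulators were expressed in NCI-H1650 and hardly at all in NCI-H196 or HCC366. *GRHL2*, an activator of epithelial junction genes, had 0 reads in the 4 libraries of NCI-H196 and HCC366 and was at 201 ± 7.13 CPM (SD, n = 2) in NCI-H1650. *KRT19* had the same 0 reads and was at 417 and 564 CPM in NCI-H1650, at least 1481-fold higher than in NCI-H196. *RAB25* and *S100A14* repeated this pattern. *ESRP1*, the epithelial splicing factor, was at 0.996 and 0 CPM in NCI-H196, 0 and 0.321 CPM in HCC366 and 153 and 156 CPM in NCI-H1650. The protease gene *ST14* was at 404 and 440 CPM in NCI-H1650 and under 2 CPM in the others.

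Mesenchymal genes were higher in NCI-H196, though not all of them. Of 28 tested, 18 were higher and 5 lower, with 16 and 4 in the same direction against each line (median log2 fold change 1.07). Without NCI-H196 sg1, 9 were higher and 3 lower. *VIM*, the intermediate filament of mesenchymal cells (chr10:17270240-17279592), was at 2597 and 1570 CPM in NCI-H196, 6.86 and 7.06 CPM in HCC366 and 129 and 128 CPM in NCI-H1650. HCC366 was therefore the line with the lowest *VIM*. The log2 fold change of NCI-H196 was 8.29 against HCC366 (adjusted p = 2.47e-191) and 4.10 against NCI-H1650 (adjusted p = 6.68e-97). *ZEB1* and *ZEB2*, repressors of *CDH1*, were at 155 and 137 CPM and 154 and 125 CPM in NCI-H196. *ZEB1* was at 27.5 and 31.1 CPM in HCC366 and 2.47 and 2.92 CPM in NCI-H1650, so its order over the lines was the inverse of that of *CDH1* (3 lines, no test). *PRRX1*, a homeobox factor of mesenchyme, was at 206 and 212 CPM in NCI-H196, at 0 reads in HCC366 and at 3 reads in NCI-H1650, at least 294-fold higher than in HCC366.

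N-cadherin (*CDH2*) was at 179 and 137 CPM in NCI-H196 and at most 3.89 CPM in the other 4 libraries, and *CDH11*, the cadherin of osteoblasts and fibroblasts, at 112 and 24.9 CPM against 0 reads in HCC366 and 7.63 and 6.32 CPM in NCI-H1650. The contractile genes *ACTA2*, *TAGLN* and *CNN1* had log2 fold changes of 5.34, 3.20 and 6.36. *MYL9*, a myosin light chain usually expressed with them, went the other way, with 3 reads in NCI-H196 against 168 and 176 CPM in HCC366 and 287 and 309 CPM in NCI-H1650 (log2 fold change −9.28). *CAV1* and *ENG* were lower as well (−1.40 and −2.90), as was *CDH4* (−4.75).

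Some integrins were higher and others lower in NCI-H196, beside 31.4% and 29.5% of all genes. Of 18 tested, 6 were higher and 7 lower, a median of −0.08 (3 and 4 without NCI-H196 sg1). The lower ones included the partners of epithelial laminin receptors. *ITGB4*, the hemidesmosome subunit, was at 2.99 and 0 CPM in NCI-H196, 130 and 146 CPM in HCC366 and 272 and 309 CPM in NCI-H1650, and its partner *ITGA6* at 37.7 and 49.8 CPM against 328 to 575 CPM. *ITGA3*, another laminin-binding subunit, was at 262 and 224 CPM against 2489 and 2726 CPM in HCC366 and 560 and 630 CPM in NCI-H1650. *ITGB8*, a subunit of a TGF-β activating integrin, had 0 reads in NCI-H196 and was at least 527-fold lower than in HCC366 and 644-fold lower than in NCI-H1650. The higher ones included *ITGA11*, a collagen receptor of fibroblasts, at 174 and 262 CPM in NCI-H196 and 1.72 to 2.19 CPM in the other 4 libraries (log2 fold change 6.50, standard error 0.22, adjusted p = 4.33e-186). The common partner *ITGB1* was at 1400 and 1209 CPM against 566 to 798 CPM. *ITGA7* and *ITGB3* were also higher (4.66 and 3.17).

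Of 27 other adhesion molecules tested, 8 were higher and 14 lower (4 and 6 without NCI-H196 sg1), and 8 and 8 were so against each line. The shares of all genes were 31.4% higher and 29.5% lower, and 18.6% and 17.1% against each line. *VCAM1*, a ligand of leukocyte integrins, had 0 reads in HCC366 and NCI-H1650 and was at 25.6 and 99.7 CPM in NCI-H196, at least 37.4-fold and 74.9-fold higher. *CDH13*, the cadherin without a cytoplasmic part, was at 23.7 and 24.9 CPM in NCI-H196 with 1 read in the other 4 libraries. The heparan sulfate proteoglycan gene *SDC2* was at 343 and 274 CPM in NCI-H196, at 0 reads in HCC366 and at 91.3 and 75.8 CPM in NCI-H1650. *L1CAM* had 3 reads in NCI-H196 and was at 289 and 299 CPM in HCC366 and 24.9 and 21.4 CPM in NCI-H1650. *NEO1* and *NECTIN1* were lower (−5.49 and −4.72).

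NCI-H196 expressed a matrix of fibrillar collagens and small proteoglycans. Of 30 collagen genes tested, 16 were higher and 6 lower, 11 and 4 against each line, with a median log2 fold change of 0.94 (11 and 3 without NCI-H196 sg1, 15 and 8 in the *ADAR* libraries). The collagens of the list summed to 7486 and 7738 CPM in NCI-H196, 1511 and 1449 CPM in HCC366 and 1406 and 1369 CPM in NCI-H1650. *COL1A2* (chr7:94024207-94060539), the alpha 2 chain of collagen I, was at 2305 and 2505 CPM in NCI-H196. It had 1 read in both libraries of HCC366 together and 3 in those of NCI-H1650, a ratio of 6590 to NCI-H1650 (95% counting interval 2255 to 31960). *COL1A1*, the other chain, was at 2062 and 2255 CPM in NCI-H196, 94.4 and 117 CPM in HCC366 and 16.6 and 12.6 CPM in NCI-H1650, so HCC366 had the alpha 1 chain almost without the alpha 2 chain. Per kilobase of transcript, the chains stood at 240 (*COL1A1*) and 222 (*COL1A2*) RPKM in NCI-H196, and at 11.8 and 0.0148 RPKM in HCC366.

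*COL3A1*, *COL5A2*, *COL8A1* and *COL12A1* were higher than in either line (log2 fold changes against the mean of 6.56, 6.50, 8.07 and 3.38). *COL5A1* was not separated from NCI-H1650, at 428 and 312 CPM in NCI-H196 and 447 and 458 CPM in NCI-H1650 (log2 fold change −0.15, adjusted p = 0.454), against 6.86 and 7.06 CPM in HCC366. *COL4A2*, a basement membrane chain, lay between the other lines, and *COL4A5* was lower (−2.15).

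The chains of collagen VI, which assemble with each other into 1 molecule, split between the lines. *COL6A3* was at 340 and 386 CPM in NCI-H196, 0.858 and 0.642 CPM in HCC366 and at 0 reads in NCI-H1650, at least 973-fold higher than in NCI-H1650. *COL6A1* (chr21:47401684-47424964) was at 0.886 and 0 CPM in NCI-H196 against 160 and 159 CPM in HCC366 and 72.9 and 75.1 CPM in NCI-H1650. *COL6A2* lies beside it on chromosome 21 and was at 3.99 and 0 CPM against 331 and 308 CPM and 84.6 and 86.5 CPM. Each line therefore expressed either the alpha 3 chain or the alpha 1 and alpha 2 chains of this collagen. The log2 fold changes were 11.10 for *COL6A3*, −6.89 for *COL6A1* and −5.37 for *COL6A2* (adjusted p = 1.28e-302, 3.75e-99 and 7.31e-95). In the *ADAR* libraries they were 9.12, −6.45 and −5.00.

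**Figure D3:**
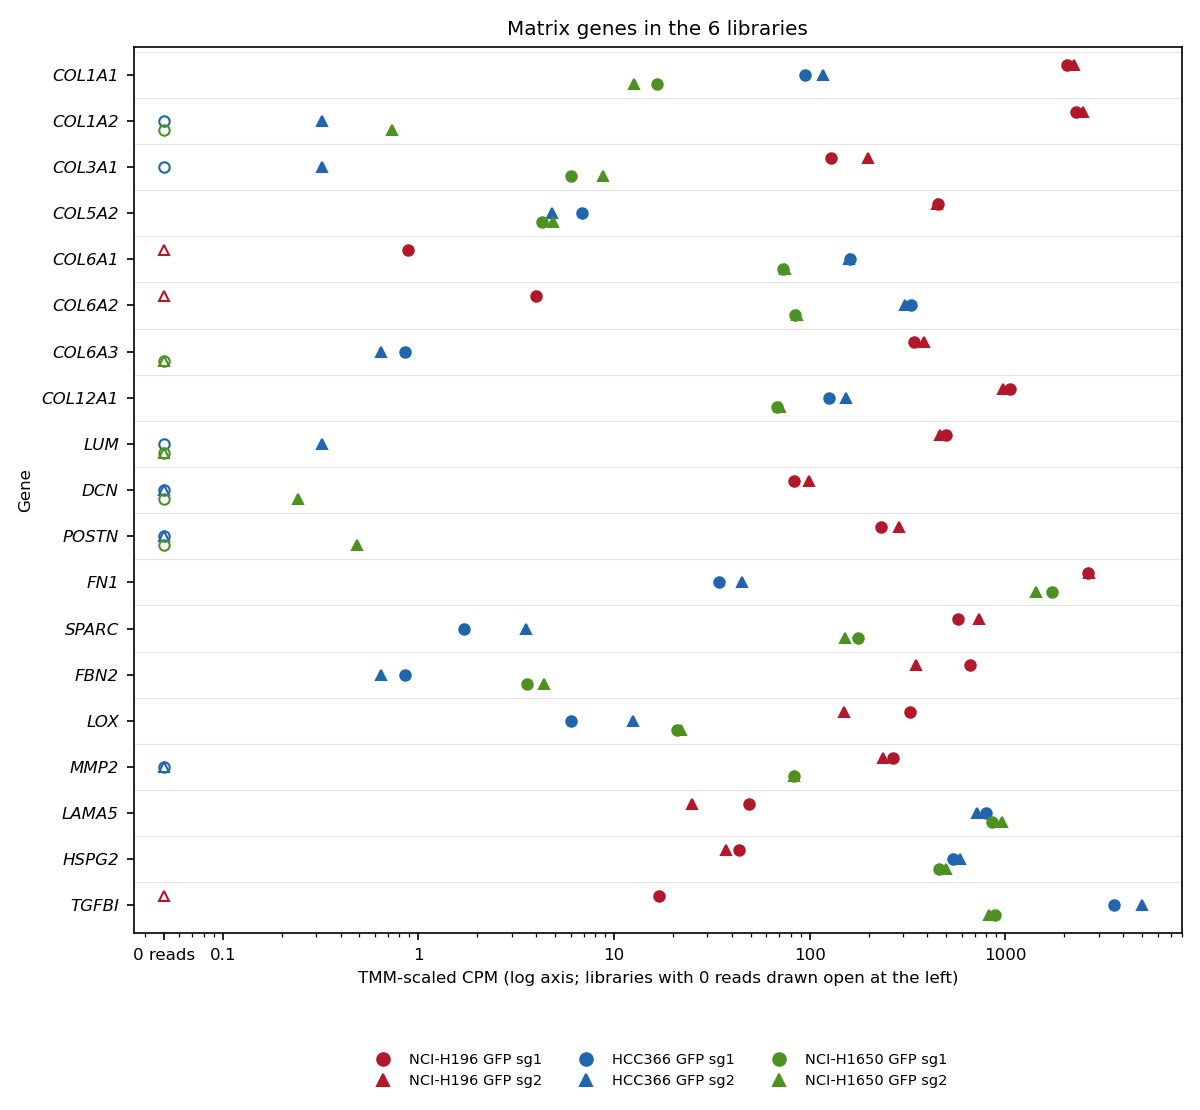
Expression of 19 matrix genes in the 6 libraries, in TMM-scaled CPM on a log axis, with 1 point per library (circles, sg1; triangles, sg2; open points at the left, 0 reads). The red points of NCI-H196 lie to the right for *COL1A1*, *COL1A2*, *LUM* and *POSTN* and to the left for *COL6A1*, *COL6A2*, *LAMA5* and *TGFBI*.

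Laminins and other basement membrane genes went mostly the other way, beside 31.4% of all genes higher and 29.5% lower. Of 18 tested, 5 were higher and 10 lower, a median of −0.71 (2 and 5 without NCI-H196 sg1). *LAMB3*, a laminin chain of epithelia, was at 104 and 137 CPM against 507 to 935 CPM, *LAMA5* at 48.8 and 24.9 CPM against 720 to 958 CPM, and perlecan (*HSPG2*) at 43.4 and 37.4 CPM against 460 to 590 CPM. Agrin (*AGRN*) was lower as well (−2.06). The nidogens, which link laminin to collagen IV, were higher: *NID1* was at 501 and 536 CPM in NCI-H196, at 1 read in HCC366 and at 98.1 and 96.0 CPM in NCI-H1650, and *NID2* at 155 and 174 CPM against at most 4.26 CPM. *LAMA4*, a chain of vascular and mesenchymal laminin, was higher too (1.58).

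Of 35 matrix glycoproteins and proteoglycans tested, 19 were higher and 11 lower, with 16 and 9 in the same direction against each line (14 and 8 without NCI-H196 sg1). Small leucine-rich proteoglycans marked NCI-H196. *LUM* (lumican) was at 496 and 461 CPM with 1 read in the other 4 libraries, and *DCN* (decorin) at 82.8 and 99.7 CPM, also with 1. *BGN* (biglycan) was at 227 and 249 CPM against 0.858 to 2.47 CPM. *POSTN* (periostin) was at 232 and 287 CPM with 2 reads in NCI-H1650 and 0 in HCC366, and the large proteoglycan *VCAN* at 650 and 598 CPM against 5.59 to 10.3 CPM. Fibronectin was shared with NCI-H1650: *FN1* was at 2656 and 2667 CPM in NCI-H196, 34.3 and 45.3 CPM in HCC366 and 1730 and 1441 CPM in NCI-H1650 (log2 fold change 6.01 against HCC366 and 0.75 against NCI-H1650, adjusted p = 2.46e-133 and 0.000133). *SPARC* and *FBN1* had the same order over the lines. *FBN2* was at 659 and 349 CPM against at most 4.38 CPM.

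*TGFBI*, a TGF-β induced adhesion protein, was the most abundant of the glycoproteins named in HCC366, at 555 RPKM, and was at 16.9 and 0 CPM in NCI-H196, 3596 and 4969 CPM in HCC366 and 888 and 830 CPM in NCI-H1650 (log2 fold change −6.85, standard error 0.30, adjusted p = 1.13e-113). *IGFBP3* was lower as well, at 12 and 0 CPM against 173 to 328 CPM, and *MFAP5* had 0 reads in NCI-H196 against 25.6 and 12.6 CPM in NCI-H1650.

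Enzymes and chaperones that process collagen and other matrix proteins were mostly higher in NCI-H196. Of 33 tested, 26 were higher in NCI-H196 and 4 lower, with 19 and 3 against each line (median 1.14; 10 and 2 without NCI-H196 sg1; 24 and 5 in the *ADAR* libraries). *LOX*, which crosslinks collagen and elastin, was at 327 and 150 CPM in NCI-H196, 6 and 12.5 CPM in HCC366 and 20.9 and 21.9 CPM in NCI-H1650. *FKBP10* and *SERPINH1*, chaperones of procollagen, had log2 fold changes of 5.73 and 1.51. The collagenase *MMP14* was at 665 and 660 CPM against 246 and 198 CPM in HCC366 and 26.5 and 22.9 CPM in NCI-H1650, and its substrate *MMP2* at 267 and 237 CPM against 0 reads and 83.5 and 83.4 CPM. *ADAM12* was higher too (4.84). *LOXL2* was lower than in HCC366 (−2.16) and not called against NCI-H1650 (0.34, adjusted p = 0.0961). *PLAU*, the urokinase gene, was at 15.6 and 12.5 CPM against 79.2 to 136 CPM, and *MMP9* had 0 reads against 4.13 to 7.72 CPM.

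Receptors for matrix and growth factors also went in both directions, more of them lower. Beside them, 31.4% of all genes were higher and 29.5% lower, and 18.6% and 17.1% were so against each line. Of 27 receptor genes tested, 8 were higher and 14 lower, 7 and 12 against each line (2 and 5 without NCI-H196 sg1). *DDR2*, the discoidin receptor for fibrillar collagen, was at 787 and 959 CPM in NCI-H196 and 4.49 to 7.38 CPM in the other 4 libraries (log2 fold change 7.14, standard error 0.18). Its epithelial relative *DDR1* was at 24.7 and 37.4 CPM against 70.3 to 202 CPM (−2.41). *PDGFRA* and *PDGFRB*, receptors of mesenchymal growth factors, had 0 reads in HCC366 and were at 21.0 and 12.5 CPM and 25.6 and 74.8 CPM in NCI-H196. *EGFR* was at 479 and 361 CPM in NCI-H196 against 964 to 1125 CPM, *ERBB2* at 73.2 and 62.3 CPM against 132 to 164 CPM and *ERBB3* at 0.996 and 0 CPM against 4.81 to 26.7 CPM. *MET*, *EPHA2* and *INSR* were lower (−0.79, −1.82 and −3.96), as was *MST1R*, with 1 read in NCI-H196 sg2. *FGFR4* had 0 reads in NCI-H196 against 3.21 to 14.1 CPM. *AXL*, a receptor often found in mesenchymal tumor cells, was higher (1.15).

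Targets of YAP and TAZ went in both directions, beside 31.4% of all genes higher and 29.5% lower (median −0.01). Of 26 tested, 9 were higher and 9 lower, and the median was −0.07 (1 and 5 without NCI-H196 sg1). *CTGF* was at 434 and 212 CPM in NCI-H196 against 123 to 146 CPM, whereas *CYR61*, the target most often read beside it, was at 388 and 162 CPM against 559 to 1210 CPM. *GLI2* and *RBMS3* were higher (3.92 and 1.99) and *AMOTL1*, *CRIM1* and *NUAK2* lower (−1.80, −1.45 and −1.89). *ANKRD1* was at 128 CPM in NCI-H196 sg1 and had 0 reads in sg2, and its log2 fold change of 2.21 rests on sg1 alone.

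By the rule for the largest changes among protein-coding genes (called, libraries not overlapping, at least 3 reads in each library of the higher side), the 10 highest in NCI-H196 were *COL1A2*, *LUM*, *MUC13*, *POSTN*, *GREM1*, *COL6A3*, *GALNT5*, *PRRX1*, *KCNMB1* and *SSX1*. *GREM1*, a secreted BMP antagonist, was at 176 and 137 CPM with 1 read in the other 4 libraries. *MUC13*, a membrane mucin of epithelia, was at 240 and 162 CPM with 1 read elsewhere, against the direction of other epithelial genes. *SSX1*, a cancer-testis gene on the X chromosome with close paralogs between which reads may be divided, was at 142 and 87.2 CPM. *GALNT5*, which starts O-glycosylation, and *KCNMB1*, a potassium channel subunit of smooth muscle, had 0 reads in the other lines. The 10 lowest had 0 reads in NCI-H196. They were *TINAGL1*, *ITGB8*, *H3C8*, *F11R*, *STK26*, *USP25*, *PKP2*, *ARRB1*, *TEX15* and *ABAT*. *TINAGL1*, a matrix protein that binds integrins, was at 319 and 215 CPM in HCC366 and 184 and 194 CPM in NCI-H1650, at least 739-fold and 575-fold higher than in NCI-H196. *H3C8* belongs to the replication-dependent histones, whose near-identical copies make its count uncertain.

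Interferon-stimulated genes were expressed in all 3 lines. Over the 71 tested genes of the 2 ISG lists, 7 were higher and 18 lower against each line, beside 18.6% and 17.1% of all genes. In the 27-gene signature that the study defined, 26 genes were tested, of which 5 were higher and 15 lower in NCI-H196, 1 and 10 were so against each line, and 1 and 5 passed the test against a log2 fold change of 1 (median −0.67). The study had drawn that list from public expression data, not from these libraries. Its genes differed there between lung cancer lines sensitive and insensitive to *ADAR* knockout. The screen of the study had named these 3 lines as sensitive, so expression of the list in all of them is not an independent result. Of 45 other ISGs, 10 were higher and 17 lower, 6 and 8 against each line (median −0.35). Without NCI-H196 sg1, the counts fell to 1 and 0 for the signature and 5 and 3 for the others, and without NCI-H1650 sg1 the signature had 2 higher. DESeq2 called 2 higher and 5 lower, and 7 higher and 9 lower. The summed level of both lists was 8553 and 12660 CPM in NCI-H196, 8722 and 14541 CPM in HCC366 and 13772 and 14830 CPM in NCI-H1650, and the ranges of the lines overlapped between NCI-H196 and HCC366 and between HCC366 and NCI-H1650.

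In each line, most ISGs were higher with GFP sg2 than with GFP sg1, for 43 of 50 genes in NCI-H196 (median log2 ratio 0.80, all 3755 genes −0.22), 58 of 62 in HCC366 (0.91) and 51 of 70 in NCI-H1650 (0.26), over genes with at least 5 reads in both libraries. Of 14986 genes, 22 (0.147%) were higher with sg2 and 2 (0.0133%) lower in a fit over the 3 lines, and 16 of these 24 were listed ISGs. In a fit without NCI-H196 the numbers were 27 (0.190%) and 3 (0.0211%), with 20 ISGs among the 30. Both fits were chosen after seeing the data. *IFI44L* was at 103 and 511 CPM in NCI-H196, 3.43 and 13.2 CPM in HCC366 and 15.9 and 67.6 CPM in NCI-H1650, a log2 difference between sgRNAs of 2.17 (standard error 0.22, adjusted p = 7.34e-19). Other ISGs called higher with sg2 included *MX1* (1.37), *OAS1* (1.31) and *OAS2* (1.31). When the sgRNA number was added to the comparison of the lines as a replicate block, 8 genes of the signature were higher in NCI-H196 and 13 lower, and 16 and 16 of the other ISGs. *MX1* (2.78, adjusted p = 1.68e-32), *IFI44L* (3.96, adjusted p = 6.51e-62) and *IFIT1* (−2.72, adjusted p = 3.59e-30) passed the threshold in that fit, which they did not without the block, and *IFIH1* (−3.14) and *DDX58* (−2.21) stayed lower.

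**Figure D4:**
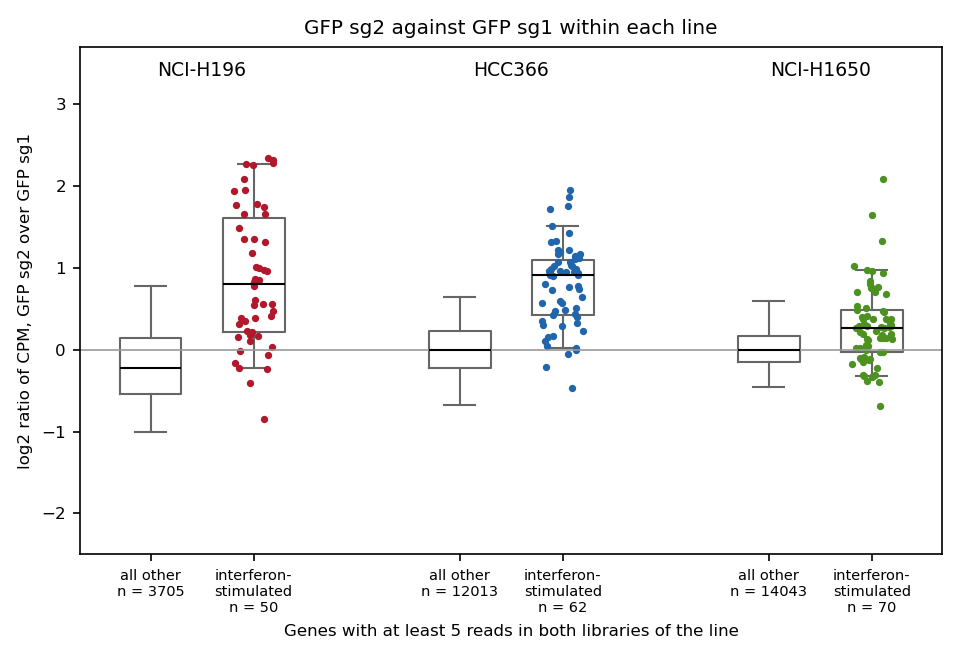
Log2 ratio of CPM between GFP sg2 and GFP sg1 within each line, for interferon-stimulated genes (points and box) and all other genes (box), over genes with at least 5 reads in both libraries. Boxes span the quartiles with the median, and whiskers the 5th to 95th percentiles. Medians of the interferon-stimulated genes are 0.80 (NCI-H196), 0.91 (HCC366) and 0.26 (NCI-H1650), above those of all genes.

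Both cytosolic RNA sensors were lower in NCI-H196 than in each of the other lines. *IFIH1* (MDA5, which binds long double-stranded RNA) was at 26.0 and 87.2 CPM in NCI-H196, 175 and 356 CPM in HCC366 and 325 and 323 CPM in NCI-H1650. No library overlapped, and the log2 fold change was −3.31 against HCC366 and −3.55 against NCI-H1650 (adjusted p = 6.28e-39 and 4.68e-44). *DDX58* (RIG-I, which binds RNA with a triphosphate end) was at 64.1 and 125 CPM, 166 and 285 CPM and 548 and 444 CPM (log2 fold change against the mean −2.33, standard error 0.20, adjusted p = 6.91e-31). *TLR3*, the endosomal sensor, was at 3 reads in NCI-H196 against 1.72 to 11 CPM. Other genes lower than in each line were the chemokine *CCL5*, at 23.5 and 24.9 CPM against 219 to 441 CPM, *IFIT2* (−2.17), the ISG15-conjugating enzyme gene *UBE2L6* (−1.68), the ISG15 ligase gene *HERC5* (−1.50) and *DDX60L* (−1.64). Over the sensing list of 23 tested genes, 5 were higher and 8 lower (0 and 0 without NCI-H196 sg1, and 3 higher without either NCI-H1650 library). The shares of all genes were 31.4% higher and 29.5% lower. *IFIH1* and *DDX58* were lower in the *ADAR* libraries too (−2.13 and −1.33). Both calls rest on NCI-H196 sg1. Without that library, *IFIH1* and *DDX58* were at −1.74 and −1.42 against the mean, in a fit where the median log2 fold change of all genes was itself −0.95. With sg1 left out, the log2 fold changes were 5.73 (*VIM*), 12.90 (*COL1A2*), 1.76 (*HLA-B*) and −13.55 (*DSP*). *DSP* had 0 reads in NCI-H196 sg2, which allows up to 37.5 CPM, so the size of that value is not measured.

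The ISGs higher than in each line included *IFI16*, a DNA sensor, at 178 and 199 CPM against 27.8 to 118 CPM (log2 fold change 1.61, adjusted p = 1.59e-27), and *SLFN5*, at 381 and 498 CPM against 29.9 to 170 CPM. *MX2*, an inhibitor of retroviruses, was at 25.5 and 87.2 CPM against 0.224 to 3.43 CPM. *IFI27* was at 474 and 424 CPM in NCI-H196, 0.858 and 1.60 CPM in HCC366 and 262 and 319 CPM in NCI-H1650. *IFITM1*, an entry inhibitor with close paralogs, was called higher (2.99) from NCI-H196 sg1 only, with 0 reads in sg2. HCC366 lacked several genes that the other lines shared: *CMPK2* had 0 reads there against 41.0 and 199 CPM in NCI-H196 and 48.5 and 78.8 CPM in NCI-H1650. *MX1* was at 151 and 386 CPM in NCI-H196, 1.72 and 9.31 CPM in HCC366 and 149 and 375 CPM in NCI-H1650, so that NCI-H196 and NCI-H1650 overlapped while the sgRNAs split both (log2 fold change against the mean 2.00, adjusted p = 0.150). *OASL* was instead high in NCI-H1650, at 725 and 574 CPM, against 18 to 49.8 CPM in the other lines.

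**Figure D5:**
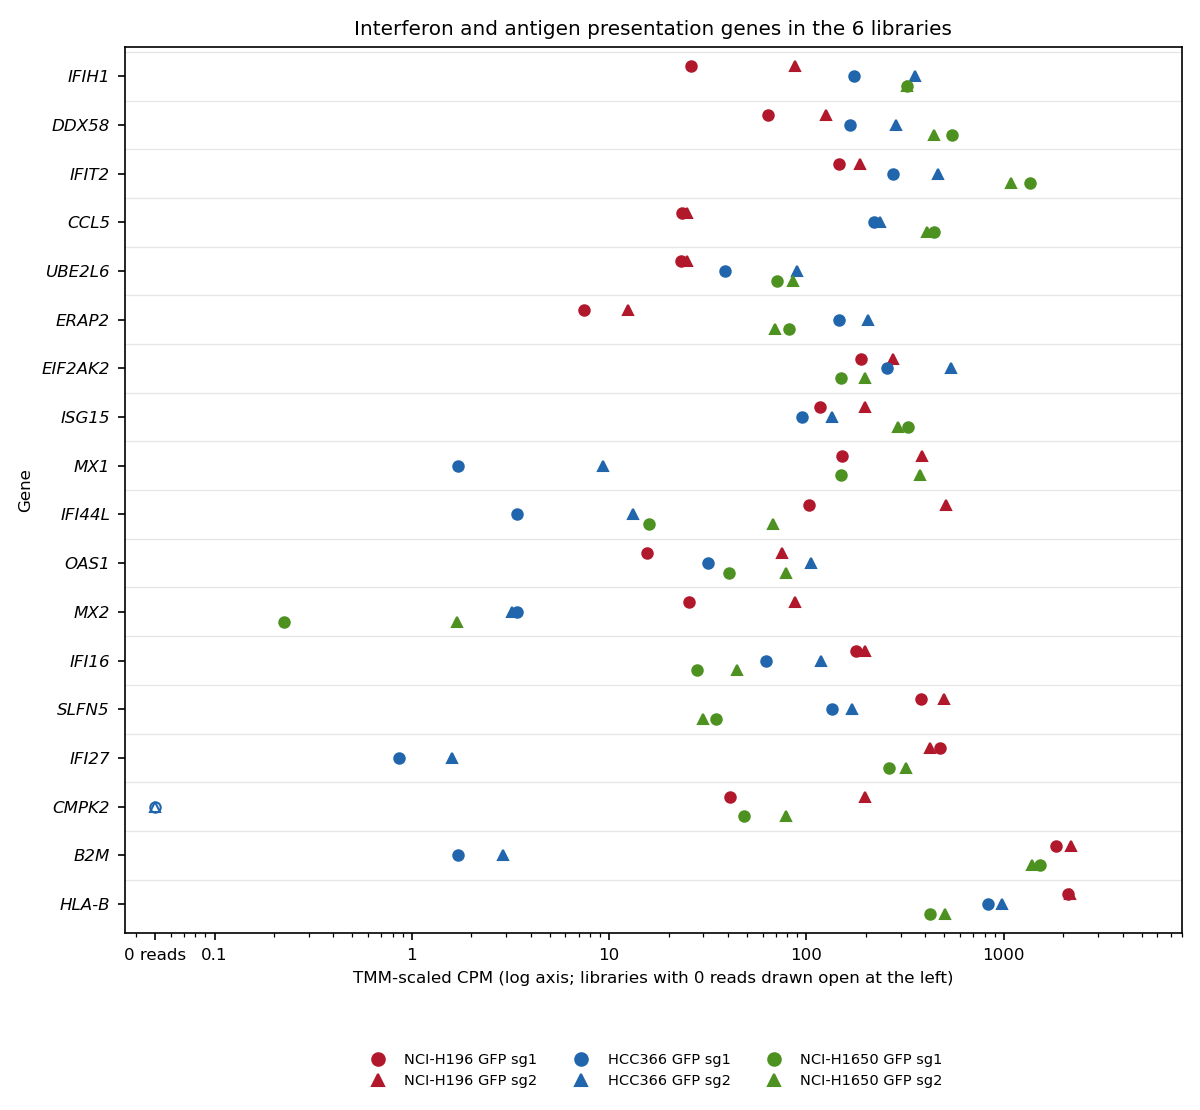
Expression of 18 interferon and antigen presentation genes in the 6 libraries, in TMM-scaled CPM on a log axis, with 1 point per library (circles, sg1; triangles, sg2; open points at the left, 0 reads). *IFIH1*, *DDX58* and *CCL5* lie lower in NCI-H196 than in the other lines and *HLA-B* higher, and for *IFI44L* and *MX1* the triangles lie to the right of the circles of the same line.

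For several core genes of the interferon pathway the libraries of the lines overlapped. *IFNAR1*, a chain of the type I receptor, was at 103 and 74.8 CPM against 88.9 to 110 CPM (0.05, adjusted p = 0.810). *TMEM173* (STING) was at 53.1 and 62.3 CPM against 46.5 to 89.5 CPM (−0.20, adjusted p = 0.305). *ISG15*, *OAS1*, *OAS2* and *IFIT1* also overlapped or missed the threshold in at least 1 comparison. *ADAR* itself was at 659 and 735 CPM in NCI-H196, 890 and 1234 CPM in HCC366 and 632 and 774 CPM in NCI-H1650 (−0.35, standard error 0.17, adjusted p = 0.0670). *EIF2AK2* (PKR) was at 188 and 274 CPM, 256 and 537 CPM and 150 and 198 CPM, lower than in HCC366 (−1.04) and not called against NCI-H1650 (0.19, adjusted p = 0.385). *IFNB1*, the IFN-β gene, had 2 reads in NCI-H196, 2 in HCC366 and at most 1.94 CPM in NCI-H1650, too few to be tested. *IFNL1* was highest in NCI-H1650, at 7.18 and 10.7 CPM. The type III receptor gene *IFNLR1* had 0 reads in HCC366 and was at 22.6 CPM in NCI-H196 sg1, 0 reads in sg2. *IL10RB*, its partner, and *IRF9* were called higher than the mean (0.97 and 1.32) and *IRF1* and *IRF5* lower (−0.81 and −2.04). The list of interferons, receptors and JAK-STAT genes stood beside 31.4% of all genes higher and 29.5% lower. Of 21 genes of this list tested, 6 were higher and 6 lower (0 and 1 without NCI-H196 sg1, and 3 higher without NCI-H1650 sg1).

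Antigen presentation genes were more often higher than lower. Of 27 genes tested, 14 were higher in NCI-H196 and 4 lower, with 8 and 2 against each line (median 0.46; 8 and 2 without NCI-H196 sg1, 9 higher without NCI-H1650 sg1, 8 and 2 by DESeq2). The class I heavy chain *HLA-B* was at 2112 and 2156 CPM in NCI-H196, 833 and 976 CPM in HCC366 and 421 and 506 CPM in NCI-H1650 (log2 fold change 1.72, standard error 0.16, adjusted p = 3.45e-27). *HLA-C* and *HLA-F* were higher too (1.21 and 1.74). These genes are polymorphic paralogs, so reads may be lost or divided between them. *B2M* (chr15:45003556-45011049), the light chain that every class I molecule needs, was at 1835 and 2193 CPM in NCI-H196 and 1517 and 1395 CPM in NCI-H1650 but 1.72 and 2.89 CPM in HCC366. NCI-H196 was thus separated from HCC366 by a log2 fold change of 9.57 (adjusted p = 1.89e-180) and from NCI-H1650 by 0.44 (adjusted p = 0.0278). The peptide transporter *TAP1* was at 181 and 299 CPM against 24.0 and 48.1 CPM in HCC366 and 142 and 140 CPM in NCI-H1650. *ERAP2*, an aminopeptidase that trims peptides, was at 7.42 and 12.5 CPM against 69.3 to 205 CPM (−3.95), and the loading chaperone *TAPBP* was lower (−1.23). *CD74*, the class II invariant chain, was high in NCI-H1650 only, at 66.9 and 118 CPM.

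Promoters of 3 of these genes are printed because they carry GAAA, any 2 bases and again GAAA, the core of the element bound by interferon regulatory factors, and show ISGs with 3 orders over the lines. The motif was found on either strand in 13 of 24 promoters of the signature (54.2%), 22 of 33 of other ISGs (66.7%) and 9 of 22 of antigen presentation genes (40.9%), against 3.57% of all promoters. Capitals mark it, with overlapping matches run together. The *IFIH1* promoter is at chr2:163175145-163175444 (minus strand), *IFI44L* at chr1:79085883-79086182 (plus strand) and *B2M* at chr15:45003465-45003764 (plus strand), all in GRCh37.
IFIH1 promoter: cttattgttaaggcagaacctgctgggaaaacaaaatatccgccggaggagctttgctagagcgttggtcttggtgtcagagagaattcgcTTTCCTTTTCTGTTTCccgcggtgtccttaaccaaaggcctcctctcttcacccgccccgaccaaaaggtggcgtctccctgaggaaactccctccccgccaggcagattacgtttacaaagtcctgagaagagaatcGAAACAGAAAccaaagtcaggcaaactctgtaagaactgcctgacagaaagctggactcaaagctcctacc
IFI44L promoter: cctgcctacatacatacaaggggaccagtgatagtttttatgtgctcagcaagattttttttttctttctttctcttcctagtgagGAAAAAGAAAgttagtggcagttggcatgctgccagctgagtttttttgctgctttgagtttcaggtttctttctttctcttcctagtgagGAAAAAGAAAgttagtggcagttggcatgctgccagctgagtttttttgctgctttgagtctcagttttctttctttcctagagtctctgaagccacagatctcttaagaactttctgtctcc
B2M promoter: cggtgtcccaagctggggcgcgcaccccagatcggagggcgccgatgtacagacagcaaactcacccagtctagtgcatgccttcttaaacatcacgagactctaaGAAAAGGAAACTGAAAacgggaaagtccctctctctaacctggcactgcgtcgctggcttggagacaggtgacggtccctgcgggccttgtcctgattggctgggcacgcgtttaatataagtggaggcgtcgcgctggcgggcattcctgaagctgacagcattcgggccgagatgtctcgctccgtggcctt
The same letters thus stood before *IFIH1*, low in NCI-H196, *IFI44L*, highest in NCI-H196, and *B2M*, nearly silent in HCC366. *IFI44L* was not called against the mean in the main fit (adjusted p = 0.139) but was called higher with the replicate block. *B2M* was at 1.72 and 2.89 CPM in HCC366 with its matches 144 and 138 bases before the start site, and *IFIH1* at 26.0 and 87.2 CPM in NCI-H196 with matches at 159, 153 and 21 bases.

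The contrast was also made in the *ADAR* libraries of the 3 lines, where 24.9% of 14994 genes were higher in NCI-H196 and 22.1% lower. Of genes higher in NCI-H196 in the control libraries and tested in both sets, 69.4% were also called higher in the *ADAR* libraries, and of lower genes 65.8%. Of the list genes, 0 were called in opposite directions, beside 10 of all 14285 genes tested in both sets. The call was found again for 25 of 25 lower epithelial junction genes, 17 of 18 higher mesenchymal genes, 15 of 16 higher collagens and 24 of 26 higher crosslinking and processing genes, and for 6 of 15 lower genes of the ISG signature and 10 of 17 of the other lower ISGs. Differences between these shares were not tested. *RB1* (−0.69, adjusted p = 0.128), *CDK6* (−0.62, adjusted p = 0.110) and *AXL* (0.50, adjusted p = 0.0589) were among 11 named genes whose call was lost in the *ADAR* libraries, with *MET* (−0.55), *LOXL2* (−0.51), *ISG15*, *EIF2AK2* (−0.09), *IFNL1* (−0.86), *CHGB* (−2.33) and *ANKRD1* (0.11). Leaving out NCI-H196 sg2, as its depth calls for, changed the counts of these lists by at most 2 genes.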

How the data were processed

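The deposited files hold raw counts of reads per gene, which the authors made from paired-end, rRNA-depleted, directional RNA-seq; their processing notes name STAR, HTSeq, DESeq2 and hg19. Tool versions, the annotation release and the strand setting of counting are not given in the sources used here. Each file lists 58233 Ensembl identifiers, of which 55727 were matched to symbols and 2506 were not. No values were normalized before deposit.

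The 6 GFP libraries were fitted with 3 groups in edgeR 4.0.16 (R 4.3.3, limma 3.58.1; TMM, filterByExpr, robust quasi-likelihood), with contrasts of NCI-H196 against the mean of HCC366 and NCI-H1650 and against each, at a Benjamini-Hochberg adjusted p of 0.05 over all 14986 genes tested. An exact permutation test of 2 libraries against 4 has 15 assignments and cannot reach that threshold, so none was run. Standard errors were obtained from the test, as the absolute log2 fold change divided by the square root of the F statistic. The scripts were tested on simulated data. Folds against a line without reads use a floor of 3 reads over its 2 libraries. Ratios to 1 to 3 reads carry 95% counting intervals. Floors and intervals cover counting error only. Alternatives were DESeq2 1.42.0, voom, other scaling, no filter, a test against a log2 fold change of 1, GC and length offsets, a replicate block, the *ADAR* libraries and leaving out each library.

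The 22 lists held 607 distinct genes, 605 of them matched (*NOV* and *PECAM1* were not). The members and lists were chosen with earlier results of these data known. Genes were named from a fixed set, as up to 3 called members with the largest and up to 3 with the smallest change in each list, and as the 10 largest increases and 10 largest decreases among protein-coding genes. Further list members were named after their values were seen, among them *DSP*, *UCHL1*, *ZEB2*, *COL5A2*, *VCAN*, *BGN*, *LOX*, *MMP14*, *IFI44L*, *OAS1*, *OAS2*, *TAP1*, *NOTCH3* and *COL4A2*. Promoters came from RefSeq and were matched to GRCh37 exactly once each. Some genes of these lists are not reported here by name.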

Additional observations from a re-analysis of the deposited data

Results flagged for a closer look

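*COL4A2* and *NOTCH3* were among the genes for which NCI-H196 was called against both other lines in opposite directions. For such genes the mean of those lines describes neither line. The difference between the contrasts was tested as HCC366 against NCI-H1650. The log2 difference was −5.42 for *COL4A2* and −6.94 for *NOTCH3* (HCC366 minus NCI-H1650). Over all genes 6.03% had this pattern.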

How the results depend on the processing

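Depth limits these results: NCI-H196 sg2 held 62679 reads, so the spread of NCI-H196 is hardly measured. Against the mean, HCC366 and NCI-H1650, 9135, 8834 and 9485 genes were called. DESeq2 called 3322, 3450 and 3214, and the test against a log2 fold change of 1 called 3421, 3901 and 3728. Leaving out 1 library gave 1202 to 9979, 1727 to 9693 and 1415 to 10606, lowest each time without NCI-H196 sg1, where the median of all genes moved to −0.95, −0.90 and −0.98. A replicate block by sgRNA gave 8019, 7739 and 8670 calls. Correlations of the deviations of same-numbered libraries were 0.00797, 0.175 and 0.111, and the main fit did not take the numbers as pairs. The same sgRNAs were used in each line, and correlations over 3622 genes cannot show a difference confined to a small set such as the ISGs. The main ISG counts leave the sgRNA difference in, and NCI-H196 rests mainly on sg1 while HCC366 has more reads in sg2. The block raised the calls of higher ISGs from 5 to 8 in the signature and from 10 to 16 in the other list. Without a filter on low counts, 7053 genes were higher and 4372 lower, and with the size factors of DESeq2 4149 and 5244. Of 3214 values of named genes under the alternatives, 2971 kept direction and call, 155 lost the call, 67 gained one and 21 changed sign. Without NCI-H196 sg1, 61 of 190 lost the call and 10 changed sign, and without NCI-H196 sg2, 3 of 202 lost it and 0 changed sign. The cause of these changes was not tested.

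The signs that changed were these. *REST* was −0.0048 by DESeq2, −0.05 with GC and length offsets and −0.14 with these and the replicate block, and *IFNAR1* −0.11, −0.12 and −0.12, with −0.08 under the size factors of DESeq2. *OAS2* was 0.25 by DESeq2 and 0.49 in the *ADAR* libraries, where *ADAR* was 0.34. Leaving out single libraries, log2 fold changes ranged from −0.19 to 0.15 (*REST*), −0.67 to 0.07 (*EIF2AK2*), −0.77 to 0.09 (*ISG15*), −0.37 to 0.05 (*IFNAR1*), −0.32 to 0.05 (*TMEM173*), −9.07 to 2.28 (*ANKRD1*), −5.93 to 5.96 (*IFITM1*), −4.13 to 5.11 (*IFNLR1*), −2.40 to 0.17 (*OAS1*) and −1.22 to 0.87 (*OAS2*).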
